A study of Homo sapiens with 6 samples.

Results

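The genes described here are 10 genes of fibroblast growth factor (FGF) signalling, read in the human embryonic stem cell line H1, which is long established: the ligand FGF2, the 4 FGF receptors FGFR1, FGFR2, FGFR3 and FGFR4, the Sprouty genes SPRY1, SPRY2 and SPRY4, and the transcription factor genes ETV4 and ETV5. They were taken by name, and all 10 were matched to 1 gene ID each among the 60499 in the tables and passed the filter on low counts that left 17608 genes. Total RNA was sequenced after 4 days of culture in Nutristem medium, changed daily, on 1 of 2 coatings of the culture well. The first coating was laminin LN-521 alone and the second was LN-521 together with LN-221 (LN-521+LN-221), with 3 wells each, and RNA was taken at confluence. The labels name no genetic change and no added agent in either group. LN-521 and LN-221 are basement membrane proteins that differ in their alpha chain, alpha 5 in the former and alpha 2 in the latter. The labels give neither the amount of each laminin nor the FGF content of the medium. The labels call the wells of a coating triplicate wells and number them as biological replicates, but do not say whether they came from separate cultures. The p-values measure the spread between these wells, which may be technical.

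FGF ligands bind receptor tyrosine kinases on the cell surface, and the adaptor FRS2 then links the receptor to RAS and to the kinases RAF, MEK and ERK. Active ERK raises transcription of its own inhibitors, among them the Sprouty proteins and the phosphatase DUSP6, and of ETV4 and ETV5, ETS-family transcription factors of the PEA3 group, so these transcripts are widely used as a readout of the pathway. Human embryonic stem cells are usually kept in medium that contains FGF2, which holds them in the undifferentiated state.

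Libraries held 20606494 to 26836727 estimated counts, and each of the 10 genes had 180 to 21230 counts in a library. Replicate wells differed by more than sampling noise (chi-square per degree of freedom of at least 2.76), and all 6 libraries were counted separately. Of 8 embryonic stem cell markers none was under 1 TPM (transcript level corrected for length and scaled to a fixed total) in any library. Their summed level was 2729 to 3064 TPM on LN-521 and 2657 to 2855 TPM on LN-521+LN-221. Within that list 4 of 8 genes passed the edgeR test described below, where 2.53% of all genes tested did. NANOG was lower on LN-521+LN-221 by a log2 fold change of -0.73 ± 0.09, TDGF1 by -0.65 ± 0.06 and POU5F1 by -0.36 ± 0.06, and LIN28A was higher by 0.23 ± 0.05 (SE, adjusted p of 1.65e-04, 8.23e-06, 0.00366 and 0.00737). NANOG and TDGF1 thus moved by more than any of the 10 genes, and the part of these changes in the results below was not tested. NANOG and TDGF1 kept their calls without any 1 of the 6 wells, whereas POU5F1 lost its call without LN-521+LN-221 replicate 2 (adjusted p = 0.0508) and LIN28A without LN-521 replicate 3 (0.0765) or LN-521+LN-221 replicates 2 or 3 (0.112 and 0.0568). Of 27 markers of other cell types 11 could be tested. By edgeR 0 of them passed, which at 2.53% of all genes does not set them apart, and 3 had an unadjusted p under 0.05, where 14.5% of all genes did. Under 1 TPM in every library were 4 of 6 neural ectoderm markers (PAX6 and SOX1 among them), 4 of 5 of mesoderm (TBXT, MESP1), 3 of 5 of endoderm (SOX17, FOXA2), 4 of 6 of fibroblasts (DCN, LUM) and 3 of 5 of trophoblast (CGA, GATA3). Other markers of these lists were present: NES was at 57.1 to 65.5 TPM, COL1A1 at 37.8 to 44.1, COL1A2 at 37.6 to 52.6, KRT7 at 11.1 to 13.8 and MAP2 at 4.49 to 6.92 TPM. The summed neural list was at 62.9 to 71.0 TPM on LN-521 alone and 70.9 to 72.0 TPM with LN-221 added, the fibroblast list at 77.1 to 90.3 and 81.7 to 97.1 TPM, the trophoblast list at 12.9 to 16.1 and 12.7 to 14.6 TPM, and the mesoderm and endoderm lists at 1.33 to 3.25 TPM in any library. In RNA from whole wells, fewer cells that express a gene and less RNA per cell cannot be told apart.

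The 10 genes covered a wide range of levels, and the receptors and the ligand lay above all 5 feedback genes. FGFR1 had the highest level in every library, from 254 to 347 TPM with a median of 306.5 TPM over the 6 wells. FGFR2 came next at a median of 83.2 TPM and FGF2 followed at 34.8 TPM, and each of these ranges was clear of its neighbours. FGFR3, at a median of 22.2 TPM, and FGFR4, at 19.6 TPM, overlapped over all 6 wells, with FGFR3 the higher of the pair in 5 of 6 libraries. They overlapped on LN-521 alone, at 19.0 ± 2.73 and 20.3 ± 0.794 TPM (SD, n = 3 each), but not with LN-221 added, where FGFR3 was at 23.9 ± 0.375 and FGFR4 at 18.8 ± 1.37 TPM. SPRY1 had a median of 10.2 TPM and ETV4 of 6.85 TPM. Their ranges over all wells overlapped, with ETV4 the lower in 6 of 6 libraries. SPRY2 at 3.74 TPM, SPRY4 at 3.70 TPM and ETV5 at 3.08 TPM formed the low end, and neighbours among these 3 overlapped.

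**Figure D1:**
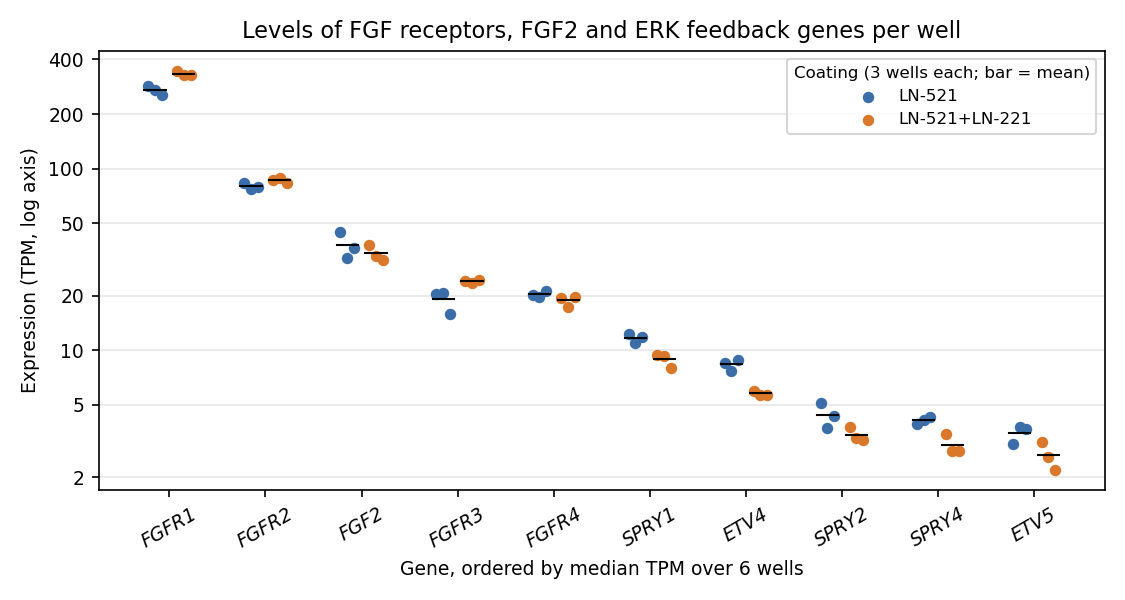
Expression of the 10 genes in each well, in TPM on a log axis, with genes ordered by their median over 6 wells, points for wells and bars for the mean of 3 wells per coating. FGFR1 lies highest at 254 to 347 TPM, and the orange LN-521+LN-221 points lie above the blue LN-521 points for FGFR1 and FGFR3 and below them for SPRY1, ETV4 and SPRY4.

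The comparison of the coatings asks how adding LN-221 to LN-521 changed expression. FGFR3 was higher on LN-521+LN-221, and SPRY4, ETV4 and ETV5 were lower, while the other 6 genes did not pass the test (edgeR quasi-likelihood test, Benjamini-Hochberg adjusted p under 0.05 over 17608 genes). The changes were modest: FGFR3 was 1.25-fold higher and ETV4, the gene with the largest change, was at 0.652 of its LN-521 level. Thus 4 of 10 genes were called, where 2.53% of all genes tested were (1.4% higher and 1.14% lower). On CPM, counts scaled to a common library total so that one gene can be compared between libraries, the wells of the coatings did not overlap for 8 of the 10 genes, 3 higher and 5 lower. Among all genes tested 19.9% did not overlap, 10.2% higher and 9.68% lower. Over the 10 genes the log2 fold change had a median of -0.25, and its absolute value a median of 0.32, against -0.00114 and 0.106 over all genes tested. By role, 3 of 4 receptors had a positive fold change, and the ligand and all 5 feedback genes a negative one.

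**Figure D2:**
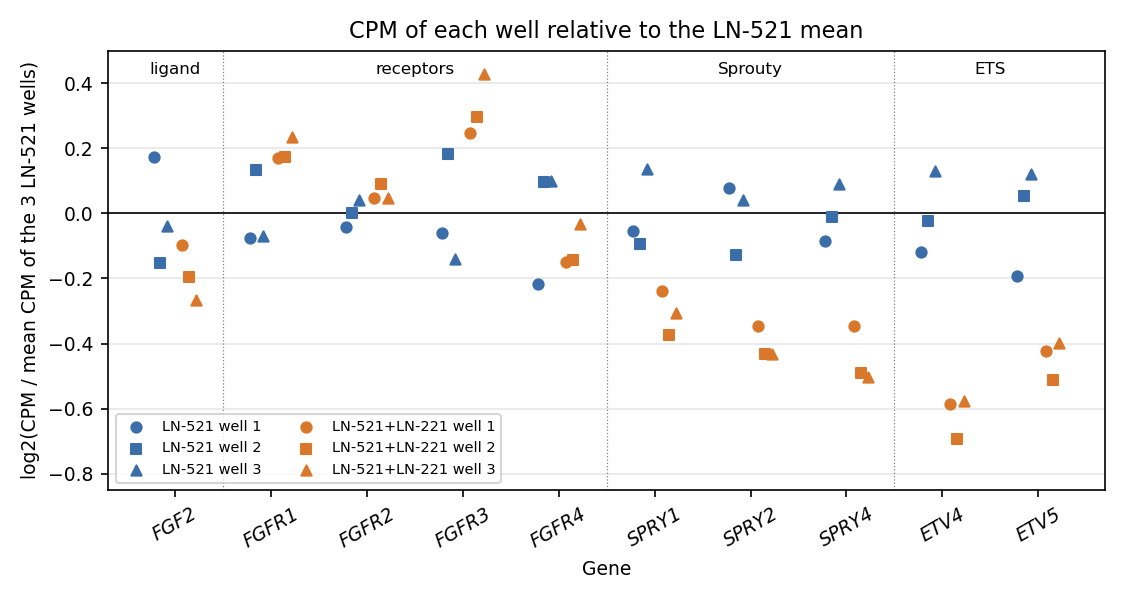
Each well's CPM divided by the mean CPM of the 3 LN-521 wells, as log2, for each gene, with blue for LN-521, orange for LN-521+LN-221 and a symbol for the well number. For the Sprouty and ETS genes at the right all 3 orange points lie below the blue ones, for FGFR1, FGFR2 and FGFR3 they lie above, and for FGF2 and FGFR4 they overlap.

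FGF2 (ENSG00000138685, chromosome 4, 122826708 to 122898236, plus strand of GRCh38) encodes the ligand that is added to most human stem cell media. Its CPM was 311, 248 and 268 in the LN-521 wells and 258, 241 and 229 in the LN-521+LN-221 wells. The first LN-521 well stood above the rest, and the other wells of the coatings overlapped. The log2 fold change was -0.18 ± 0.07 (SE, adjusted p = 0.241), with a 95% confidence interval of -0.34 to -0.03. It was -0.09 (adjusted p = 0.352) without LN-521 replicate 1 and -0.25 without LN-521 replicate 2, where it passed the threshold (adjusted p = 0.0291). A correction for GC content, chosen after seeing the data, also gave a call (-0.23, adjusted p = 0.00267). FGF2 shares 804 bases of exon with NUDT6 on the other strand. Whether counting used the strand is not given in the sources used here; NUDT6 had only 181 to 225 counts in a library, against 5362 to 7142 for FGF2.

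FGFR1 (ENSG00000077782, chromosome 8, minus strand), the most abundant of the receptors, had a CPM of 690, 798 and 693 on LN-521 alone and of 818, 820 and 856 with LN-221 added. Each LN-521+LN-221 well was above each LN-521 well, with the second LN-521 well close below them. The 138 bases of exon that FGFR1 shares with LETM2 lie on the other strand, and LETM2 had 45 to 65 counts in a library. The log2 fold change of 0.19 ± 0.06 (SE) missed the threshold (adjusted p = 0.0999), with a 95% confidence interval of 0.07 to 0.32. It passed in 4 of 19 alternative fits, among them without LN-521 replicate 2 (0.27, adjusted p = 0.00187) and with the GC correction (adjusted p = 0.00585). Without 1 of the other wells the adjusted p was 0.0815 to 0.411. FGFR2 (ENSG00000066468, chromosome 10, 121478334 to 121598458, minus strand) had a CPM of 309, 319 and 327 on LN-521 alone and of 329, 339 and 329 with LN-221 added. These wells did not overlap but lay very close together, and on TPM they overlapped. Its log2 fold change was 0.06 ± 0.05 (SE, adjusted p = 0.623), with a 95% confidence interval of -0.04 to 0.17, and was 0.04 without LN-521 replicate 1.

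FGFR3 (ENSG00000068078, chromosome 4, 1793293 to 1808872, plus strand) was the one receptor to pass the test. It had 1549, 2125 and 1591 counts on LN-521 alone and 1735, 1929 and 2244 counts with LN-221 added. After scaling these were 67.5, 79.9 and 63.9 CPM and 83.5, 86.5 and 94.8 CPM. The second LN-521 well stood above the other LN-521 wells and just below the lowest LN-521+LN-221 well, so the coatings did not overlap. Mean CPM rose from 70.4 ± 8.41 to 88.3 ± 5.82 (SD, n = 3 each), and the log2 fold change was 0.33 ± 0.08 (SE, adjusted p = 0.0322). The call changed with single wells. It was kept when LN-521 replicate 2 was left out (adjusted p = 2.37e-04) and lost when any other well was, with adjusted p-values of 0.0806 and 0.225 without LN-521 replicates 1 and 3 and of 0.0614, 0.132 and 0.216 without LN-521+LN-221 replicates 1, 2 and 3.

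FGFR4 (ENSG00000160867, chromosome 5, 177086886 to 177098144, plus strand) did not follow the other receptors in sign. Its CPM was 47.6, 59.1 and 59.2 on LN-521 alone and 49.9, 50.05 and 54.1 with LN-221 added. The LN-521+LN-221 wells lay inside the range of the LN-521 wells. The log2 fold change of -0.11 ± 0.08 (SE, adjusted p = 0.592) had a 95% confidence interval of -0.28 to 0.06. Single wells moved it, to -0.20 (adjusted p = 0.0579) without LN-521 replicate 1 and to -0.06 without LN-521 replicate 2 or 3, and the GC correction gave -0.04 (adjusted p = 0.778).

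Because TPM is corrected for length, the 4 receptors could be set against each other within a well. FGFR1 made up 69.7%, 69.8% and 68.5% of the summed receptor TPM on LN-521 alone and 72.7%, 71.6% and 72.1% with LN-221 added. The share of FGFR2 was 20.5 ± 0.850% on LN-521 alone and 18.6 ± 0.742% with LN-221 added (SD, n = 3 each), and that of FGFR4 was 5.23 ± 0.425% and 4.06 ± 0.282%. For these 3 receptors the wells of the coatings did not overlap, whereas the share of FGFR3, at 4.88 ± 0.534% and 5.17 ± 0.158%, overlapped. The ratio of FGFR3 to FGFR4 was 1.01, 1.06 and 0.751 on LN-521 alone and 1.23, 1.37 and 1.23 with LN-221 added, without overlap. Summed receptor TPM was 389 ± 19.5 on LN-521 alone and 463 ± 11.7 with LN-221 added (SD, n = 3 each). After TPM was rescaled without mitochondrial, ribosomal, 7SK and 7SL RNAs, which held 30.7% to 37.9% of the TPM in a library, the sums were 595 ± 29.8 and 689 ± 9.22. The scale matters for FGFR1, whose log2 fold change was 0.31 by limma on log2(TPM + 1) and 0.27 on the rescaled TPM. By edgeR on counts it was 0.19. The shares, ratios and sums are descriptions, and no test was run on them.

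The Sprouty proteins are inhibitors of receptor tyrosine kinase signalling that ERK activity itself induces. All 3 had lower CPM in every LN-521+LN-221 well than in any LN-521 well, and SPRY4 passed the test. SPRY4 (ENSG00000187678, chromosome 5, 142310427 to 142326455, minus strand) had 355, 433 and 435 counts on LN-521 alone and 268, 260 and 274 with LN-221 added. Its CPM was 15.5, 16.3 and 17.5 against 12.9, 11.7 and 11.6, and a gap separated the coatings on both CPM and TPM. Mean CPM fell from 16.4 ± 1.00 to 12.05 ± 0.746 (SD, n = 3 each), and the log2 fold change was -0.45 ± 0.09 (SE, adjusted p = 0.0139). The call was lost without LN-521 replicate 3 (adjusted p = 0.108) and without LN-521+LN-221 replicates 2 or 3 (0.115 and 0.105), and was kept without any of the others.

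SPRY2 (ENSG00000136158, chromosome 13, 80335976 to 80340951, minus strand) had a CPM of 11.6, 10.1 and 11.3 on LN-521 alone and 8.67, 8.16 and 8.15 with LN-221 added. The coatings were apart on CPM but overlapped on TPM. Its log2 fold change of -0.40 ± 0.11 (SE) was close to that of SPRY4 but missed the threshold (adjusted p = 0.0564). It passed in 5 of 19 alternative fits. Among these were the fits without LN-521 replicate 2 (adjusted p = 0.0230), with the GC correction (0.0194) and with no filter on low counts (0.0304). Leaving out 1 library gave adjusted p-values up to 0.241. SPRY1 (ENSG00000164056, chromosome 4, 123396795 to 123403760, plus strand) lies 499 kb from FGF2. Its CPM was 22.1, 21.5 and 25.2 on LN-521 alone and 19.5, 17.7 and 18.5 with LN-221 added, without overlap, and its log2 fold change was -0.31 ± 0.09 (SE, adjusted p = 0.0843). SPRY1 also passed in 5 of 19 alternative fits. Among these were the fits without LN-521 replicate 1 or 2 (0.0284 and 0.0321), with the GC correction (0.0152) and with no filter on low counts (0.0344). Its adjusted p reached 0.391 with 1 library left out. SPRY3, the remaining Sprouty gene, was looked up after its values were seen, and is 1 of the 13 further feedback inhibitors counted below. It had a log2 fold change of -0.49 ± 0.13 (SE, adjusted p = 0.0622), and its coatings overlapped at 13.1 CPM. SPRY3 passed in 7 of 19 alternative fits, DESeq2 and the GC correction among them. With 1 library left out its adjusted p was 0.00704 to 0.290.

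ETS-family factors such as ETV4 and ETV5 bind sites with the core GGAA. RefSeq promoter windows on GRCh38.p14 were matched for 7 of the 10 genes, all but FGFR1, ETV4 and ETV5. Shown are the 250 bases before the RefSeq start of FGFR3, the receptor that passed the test. Also shown are those before the most upstream RefSeq start of SPRY1 and of SPRY2, as the Sprouty genes with a window free of annotated exons. Each is written 5′ to 3′ along its gene, and capitals mark GGAA or its reverse complement TTCC.
FGFR3, chr4:1793043-1793292, plus strand: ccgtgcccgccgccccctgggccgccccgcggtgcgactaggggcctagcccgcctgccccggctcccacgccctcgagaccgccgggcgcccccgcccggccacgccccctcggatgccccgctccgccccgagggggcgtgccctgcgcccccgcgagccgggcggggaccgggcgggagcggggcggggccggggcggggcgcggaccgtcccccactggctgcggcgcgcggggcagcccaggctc
SPRY1, chr4:123396545-123396794, plus strand: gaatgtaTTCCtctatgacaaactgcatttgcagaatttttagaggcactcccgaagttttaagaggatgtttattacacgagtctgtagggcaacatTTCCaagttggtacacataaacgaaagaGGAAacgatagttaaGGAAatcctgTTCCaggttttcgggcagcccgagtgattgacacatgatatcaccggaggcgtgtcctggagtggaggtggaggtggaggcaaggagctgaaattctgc
SPRY2, chr13:80341127-80341376, minus strand: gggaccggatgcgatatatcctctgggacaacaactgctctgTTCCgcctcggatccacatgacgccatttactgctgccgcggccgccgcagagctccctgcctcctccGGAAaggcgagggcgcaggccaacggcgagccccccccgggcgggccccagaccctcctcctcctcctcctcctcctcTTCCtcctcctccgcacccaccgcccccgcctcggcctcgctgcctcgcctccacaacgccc
The FGFR3 window was 86.8% G or C and held 0 matches to GGAA on either strand. The SPRY1 window, 45.6% G or C, held 5 and the SPRY2 window, 70.4% G or C, held 3. Of the windows not printed, that of FGF2 held 0 matches, those of FGFR2 1 to 4, those of FGFR4 1 and 6, the other two of SPRY2 4 each, that of SPRY4, the Sprouty gene that passed the test, 2, and that of DUSP6, a feedback gene outside the 10, 6. Of 35116 windows of the same length, 92.7% held at least 1 match, with a median of 3. The longer ETS motif CCGGAAG, which contains GGAA, was in 8.52% of all windows and in 0 of these 3. A further SPRY1 window, chr4:123398136-123398385, which lies wholly in annotated exon and is not printed, held 4 matches to GGAA and 1 to CCGGAAG. A match to these letters is a description of the sequence and no binding was measured.

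ETV4 (ENSG00000175832, chromosome 17, 43527844 to 43579620, minus strand) changed more than any other of the 10 genes and ranked 92 by p-value among the genes tested. It had 429, 531 and 554 counts on LN-521 alone and 281, 280 and 322 with LN-221 added. Its CPM was 18.7, 19.96 and 22.2 on LN-521 alone and 13.5, 12.6 and 13.6 with LN-221 added. The 3 LN-521+LN-221 wells lay close together, far below the lowest LN-521 well. Mean CPM fell from 20.3 ± 1.80 to 13.2 ± 0.583 (SD, n = 3 each), and the log2 fold change was -0.62 ± 0.09 (SE, adjusted p = 9.19e-04). The call was kept whichever of the 6 wells was left out, with adjusted p-values of 5.21e-05 to 0.0161. The 68 bases of exon that ETV4 shares with DHX8 lie on the other strand. DHX8 had 1634 to 2101 counts in a library, more than ETV4 in each, and a log2 fold change of 0.10 ± 0.06 (SE, adjusted p = 0.489).

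ETV5 (ENSG00000244405, chromosome 3, 186046308 to 186110318, minus strand), the close relative of ETV4, was also lower. It had 267, 367 and 360 counts on LN-521 alone and 206, 208 and 239 with LN-221 added. Its CPM of 11.6, 13.8 and 14.4 on LN-521 alone stood against 9.92, 9.33 and 10.1 with LN-221 added, and the first LN-521 well lay nearest to the other coating. Mean CPM fell from 13.3 ± 1.48 to 9.78 ± 0.401 (SD, n = 3 each), and the log2 fold change was -0.44 ± 0.11 (SE, adjusted p = 0.0322). On TPM the coatings overlapped, at 3.05, 3.76 and 3.68 against 3.11, 2.59 and 2.19. The call was kept without LN-521 replicate 1 (adjusted p = 0.00256) and lost without any other well, with adjusted p-values of 0.0536 and 0.198 without LN-521 replicates 2 and 3 and of 0.113, 0.202 and 0.107 without LN-521+LN-221 replicates 1, 2 and 3. ETV5 shares 164 bases of exon on the same strand with DGKG, which had 5 to 12 counts in a library.

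Since the coatings did not overlap on CPM for the 5 feedback genes, the highest well of each gene was necessarily on LN-521 and the lowest on LN-521+LN-221. LN-521 replicate 3 was the highest of the 6 wells for 4 of them and LN-521 replicate 1 for SPRY2. The lowest well was LN-521+LN-221 replicate 2 for 3 of them and LN-521+LN-221 replicate 3 for the other two. Leaving out LN-521 replicate 3 left ETV4 as the 1 called gene of the 10, and so did leaving out LN-521+LN-221 replicate 2 or replicate 3. The calls over all genes fell with them, to 201, 198 and 194.

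The rest of the pathway was read from 6 lists of 73 genes, chosen with earlier results of these data known. Of these genes 59 were tested and 8 (13.6%) were called, 2 higher and 6 lower, where 2.53% of all genes tested were. All 8 were feedback inhibitors or output genes of ERK. Over the 59 tested genes the log2 fold change had a median of -0.08, with 18 values positive and 41 negative. The upstream lists held 0 called genes by edgeR: 0 of 11 FGF ligands tested, 0 of 2 co-receptors and decoys, 0 of 10 receptor adaptors and 0 of 14 genes from RAS to ERK. At the 2.53% called over all genes, a set of these 37 genes would hold few calls, so the 0 does not set them apart. Their counts at an unadjusted p under 0.05 were 0, 1, 1 and 1, where 14.5% of all genes tested reached it. DESeq2 called 1 gene of these lists.

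Among the ligands, FGF4, which stem cells make themselves, had a CPM of 8.56 ± 0.841 on LN-521 alone and of 7.31 ± 0.741 with LN-221 added (SD, n = 3 each), with overlap and a log2 fold change of -0.22 ± 0.12 (SE, adjusted p = 0.436). FGF8 was near the limit of detection, with 6 to 16 counts in a library (log2 fold change 0.45 ± 0.43 SE, adjusted p = 0.698). Its value was 0.20 and 0.24 without LN-521 replicate 3 and LN-521+LN-221 replicate 3, and 0.78 and 0.68 without LN-521 replicate 1 and LN-521+LN-221 replicate 1. FGF13, an intracellular member of the family that is not secreted, had a log2 fold change of -0.14 ± 0.09 (SE, adjusted p = 0.532). Over 19 alternatives the value of FGF13 ranged from -0.20 to -0.005. FGFRL1, a receptor-like protein without a kinase domain, was at 24.7, 28.99 and 25.1 CPM on LN-521 alone and at 21.6, 23.4 and 22.9 CPM with LN-221 added. Its coatings did not overlap, but the log2 fold change of -0.22 ± 0.08 (SE) missed the threshold (adjusted p = 0.234) and was -0.13 without LN-521 replicate 2. The adaptor FRS2 was at 34.4 ± 3.79 and 32.5 ± 0.130 CPM (SD, n = 3 each), with a 95% confidence interval of -0.25 to 0.09 for its log2 fold change.

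Of 13 further feedback inhibitors tested 4 (30.8%) were called, where 2.53% of all genes tested were. DUSP6, IL17RD and SPRED2 fell and DUSP4 rose. DUSP6 (ENSG00000139318), the cytoplasmic phosphatase that inactivates ERK, had 455, 559 and 538 counts on LN-521 alone and 332, 312 and 365 with LN-221 added. Its CPM of 20.8 ± 0.904 and 15.1 ± 1.03 (SD, n = 3 each) did not overlap, and the log2 fold change was -0.46 ± 0.09 (SE, adjusted p = 0.00703). On TPM its wells overlapped and limma on log2(TPM + 1) gave -0.21 (adjusted p = 0.791). The edgeR call was lost without LN-521 replicate 3 (adjusted p = 0.0600) or LN-521+LN-221 replicate 2 (0.0876).

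IL17RD, also known as Sef, a membrane inhibitor of FGF signalling, was at 34.3, 33.1 and 33.7 CPM on LN-521 alone and at 28.6, 26.6 and 25.5 CPM with LN-221 added, with tight groups apart from each other. Its log2 fold change was -0.33 ± 0.07 (SE, adjusted p = 0.0221), and the call was lost without LN-521 replicate 3 (0.109) and without LN-521+LN-221 replicates 2 or 3 (0.150 and 0.169). SPRED2, a Sprouty-related inhibitor of RAS to RAF signalling, was at 11.4 ± 0.393 and 8.49 ± 0.792 CPM (SD, n = 3 each), with a log2 fold change of -0.42 ± 0.11 (SE, adjusted p = 0.0420). It kept its call without LN-521 replicates 1 or 2 and lost it without LN-521 replicate 3 (0.195) or without LN-521+LN-221 replicates 1, 2 or 3 (0.0507, 0.251 and 0.202), and DESeq2 did not call it (adjusted p = 0.0603). Its relative SPRED1 had a log2 fold change of -0.10 ± 0.06 (SE, adjusted p = 0.511), and the nuclear phosphatase gene DUSP5 of -0.22 ± 0.14 (SE, adjusted p = 0.502). SPRED1 was at -0.15 without LN-521 replicate 2 and at -0.06 without LN-521+LN-221 replicate 3, and DUSP5 at -0.34 and -0.13 without LN-521 replicates 1 and 3.

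DUSP4 (ENSG00000120875), a nuclear phosphatase of the same family as DUSP6, moved the other way and by far more. It had 66, 113 and 83 counts on LN-521 alone and 178, 197 and 210 with LN-221 added. In CPM these were 2.87, 4.25 and 3.33 against 8.57, 8.83 and 8.87, and the highest LN-521 well was far below every LN-521+LN-221 well. Mean expression rose from 3.48 ± 0.699 to 8.76 ± 0.163 CPM (SD, n = 3 each), with a fitted log2 fold change of 1.32 ± 0.15 (SE, adjusted p = 3.84e-05). The call was kept without any 1 of the 6 wells, and limma on log2(TPM + 1), a scale that understates the change of a low gene, gave 0.60 (adjusted p = 0.0471).

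**Figure D3:**
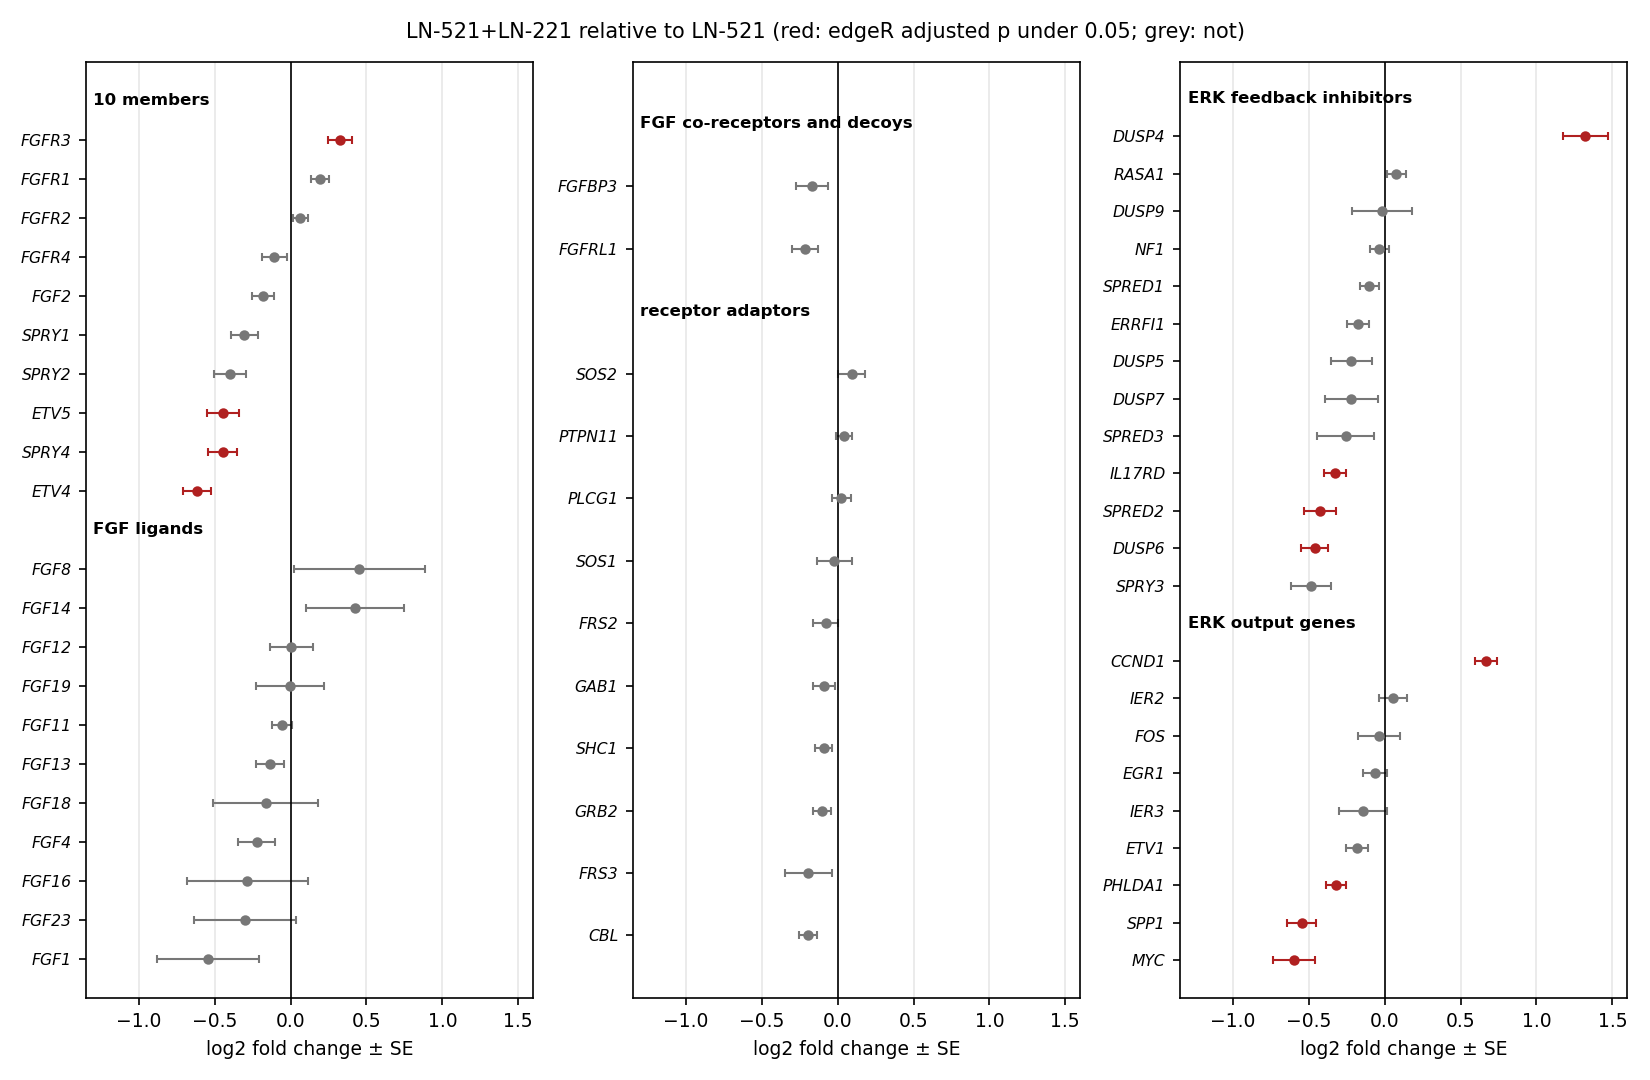
Log2 fold changes with SE bars, the mixed coating over LN-521 alone, for the 10 genes and for the tested genes of 5 of the pathway lists, with red for genes that passed the edgeR threshold. Red points are found among the 10 genes and in the 2 lists at the right, where DUSP4 (1.32) and CCND1 (0.67) lie to the right of 0 and the other 6 to its left, and none is found among ligands, co-receptors or adaptors.

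Of 9 output genes tested 4 were called (44.4%), 1 higher and 3 lower, where 2.53% of all genes tested were called. CCND1 (ENSG00000110092), which encodes cyclin D1 of the G1 phase, rose from 69.5 ± 7.496 to 110.3 ± 5.90 CPM (SD, n = 3 each), with a log2 fold change of 0.67 ± 0.07 (SE, adjusted p = 3.68e-05). SPP1, which encodes the secreted protein osteopontin, fell from 21.6 ± 2.46 to 14.8 ± 0.787 CPM (SD, n = 3 each; log2 fold change -0.55 ± 0.10 SE, adjusted p = 0.00394). CCND1 and SPP1 kept their calls without any 1 of the 6 wells. PHLDA1 was at 63.2 ± 2.59 and 50.5 ± 2.93 CPM (SD, n = 3 each), with a log2 fold change of -0.32 ± 0.07 (SE, adjusted p = 0.0102). Its call was lost without LN-521 replicate 3 (0.0940) and without LN-521+LN-221 replicates 2 or 3 (0.140 and 0.0744).

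MYC, a transcription factor of cell growth, was at 26.4, 33.9 and 40.5 CPM on LN-521 alone and at 23.5, 20.05 and 23.1 CPM with LN-221 added. The LN-521 wells were widely spread, and the log2 fold change of -0.60 ± 0.14 (SE) passed the threshold narrowly (adjusted p = 0.0498). The call was kept without LN-521 replicate 1 (adjusted p = 9.28e-06) and lost without any other well, with adjusted p-values of 0.0913 to 0.315. It was also lost with RLE size factors (0.0513), limma-trend on log2 CPM (0.0513) and a correction for GC content (0.111). ETV1, the third PEA3 factor, was at 64.0 ± 5.22 and 56.4 ± 3.64 CPM (SD, n = 3 each). Its coatings overlapped, and the log2 fold change of -0.18 ± 0.07 (SE) did not pass (adjusted p = 0.237) and was -0.12 without LN-521 replicate 3. Over 19 alternatives it reached -0.31, and it passed in 2, the GC correction with and without the replicate block.

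**Figure D4:**
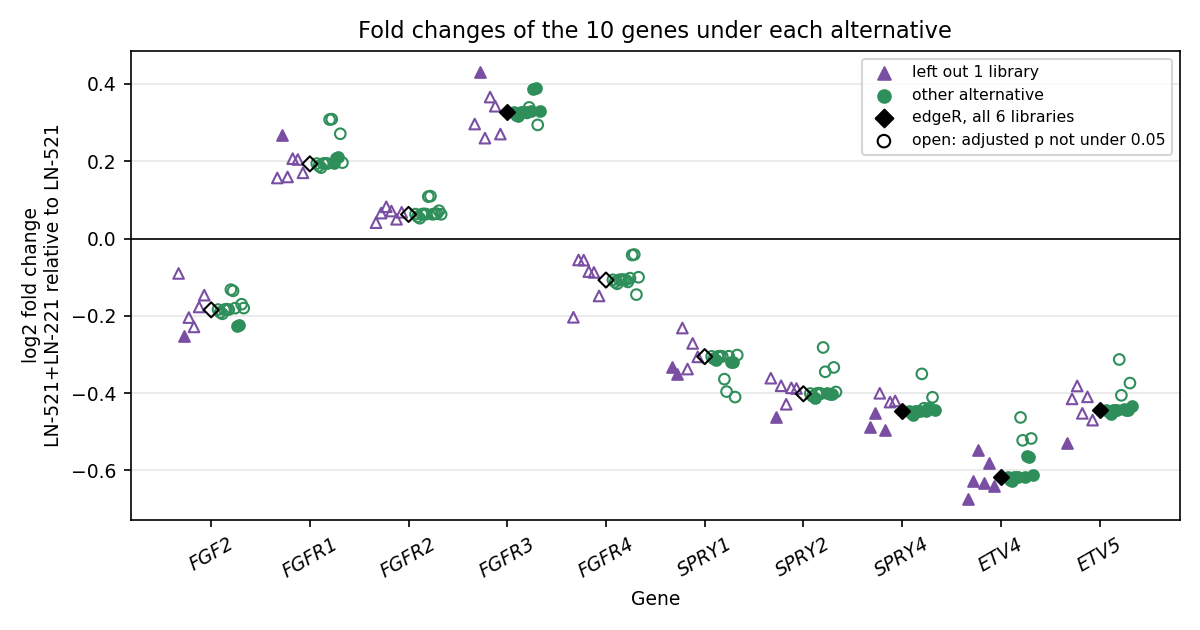
Log2 fold changes of the 10 genes under the edgeR fit on all 6 libraries (black diamonds), with 1 library left out (purple triangles) and under the other alternatives (green circles), with filled marks for an adjusted p under 0.05. No gene changes sign, and the marks of ETV4 are filled in all 6 fits that leave out a library, against 3 for SPRY4 and 1 each for FGFR3 and ETV5.

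The signs of all 10 fold changes were the same in each of the 19 alternatives run. Limma on log2(TPM + 1) called 0 of the 10 genes and 33 of 14428 genes tested, with 7 of the 10 at an unadjusted p under 0.05 (8.04% of all genes in that fit), while DESeq2 called the same 4 as edgeR. That limma test gave ETV4 a log2 fold change of -0.46 with an adjusted p of 0.141, and of the 8 called pathway genes it called DUSP4 alone.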

How the data were processed

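Total RNA from 6 wells was sequenced as stranded libraries, made from 700 ng of RNA and read in pairs of 150 bp, per the labels' protocols. Cutadapt, STAR 2.5.2b, RSEM 1.2.31 and hg38 are named in the submitters' processing notes; the annotation release and the use of strand in counting are not given in the sources used here. The authors deposited estimated counts per gene, which were rounded here (those of the 10 genes were whole), and TPM. The deposited sample sheet lists 1 sequencing batch. Symbols matched 93.1% of gene IDs, and positions and exons came from GENCODE release 29.

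Genes were filtered with filterByExpr (minimum count 10), scaled by TMM and tested with edgeR 4.0.16 (R 4.3.3; robust quasi-likelihood, all 6 libraries, Benjamini-Hochberg, threshold 0.05). An adjusted p with no tool named is from edgeR. CPM used TMM-scaled totals, and fold changes are LN-521+LN-221 over LN-521. Alternatives were RLE scaling, library size, no filter, 1 CPM in 3 libraries, removal of abundant RNAs, DESeq2 1.42.0, limma 3.58.1 on log2 TPM with a pseudocount of 1 or 0.1 (genes reaching 1 TPM in 3 libraries), a replicate block and leaving out each library. Added after seeing the data were a GC correction (lowess, span 0.3) with and without the block, limma on TPM rescaled without abundant RNAs, and limma-trend on log2 CPM. Scripts were tested on simulated data.

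Genes named are the 10, 12 fixed pathway genes and every other listed pathway gene past the threshold. SPRY3, exon neighbours, cell type markers and the genes of the closing lists were named outside that rule. The genes and lists were chosen with earlier results of these data known. For 1 listed gene the result is not reported here.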

Additional observations from a re-analysis of the deposited data

How the results depend on the processing

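Size factors by RLE, library size alone, a filter of 1 CPM, removal of abundant RNAs, DESeq2 and limma-trend on log2 CPM each left 4 of the 10 genes called, the same 4. Without a filter on low counts 718 genes were called over all genes (446 in the reported fit), 46.8% of them higher (55.2% in the reported fit), with 6 of the 10 genes (SPRY1 and SPRY2 were added) and 11 pathway genes (8 in the reported fit). With limma on log2(TPM + 1), log2(TPM + 0.1) and rescaled TPM, 33, 16 and 27 genes were called (81.8%, 62.5% and 66.7% of them higher), 0 of the 10 genes in each, and 1 gene of the pathway lists in each, DUSP4. With the GC correction 911 genes, 8 of the 10 genes (FGF2, FGFR1, SPRY1 and SPRY2 were added) and 12 pathway genes were called, and with the GC correction and the replicate block 963, 8 and 13. With the replicate block alone 646 genes were called, 6 of the 10 genes (FGFR1 and SPRY2 were added) and 10 pathway genes. Deviations of same-numbered wells from the mean of their coating correlated at 0.047, -0.022 and 0.009, against a mean of -0.006 for other numbers. Of 6 libraries 3 correlated best with their own number. With 3 wells per coating, these correlations cannot settle whether same-numbered wells were paired. Leaving out 1 library gave 194 to 1179 genes called, 1 to 7 of the 10 genes and 3 to 9 pathway genes. For all of these, the cause was not tested. Of the single genes given with a fold change, over the alternatives on all 6 libraries, 396 values kept their sign and side of the threshold, 62 lost the call and 19 gained one, and of those without 1 library 169, 45 and 7 did. Among these genes FRS2 alone changed sign, to 0.013 without LN-521 replicate 1 (leaving out 1 library gave -0.13 to 0.013). No alternative moved the median log2 fold change of all genes by more than 0.042. The SE of the log2 fold change was 0.43 for FGF8, with 6 to 16 counts in a library, and 0.06 for FGFR1, with 15840 to 21230.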

Other observations

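Further lists were put together later than the others, for families next to the 10 genes, and are described by their counts beside the 2.53% called over all genes. Of 15 further genes, other ETS factors and the repressor CIC, 14 were tested and 1 was called. ETS1, the founding member of the family, was at 33.8 ± 3.49 CPM on LN-521 alone and at 26.05 ± 1.63 CPM with LN-221 added (SD, n = 3 each), with a log2 fold change of -0.38 ± 0.09 (SE, adjusted p = 0.0225). The call was lost without LN-521 replicate 3 (adjusted p = 0.188) and without LN-521+LN-221 replicates 1, 2 or 3 (0.0598, 0.106 and 0.169). CIC, whose protein represses ETV4 and ETV5 until ERK inactivates it, had a log2 fold change of -0.12 ± 0.07 (SE, adjusted p = 0.494), and of -0.05 without LN-521 replicate 2. Over 19 alternatives it ranged from -0.17 to -0.003. Of 7 other dual-specificity phosphatases 1 was called: DUSP16, which acts on JNK and p38, fell with a log2 fold change of -0.26 ± 0.05 (SE, adjusted p = 0.0125). That call was lost without LN-521 replicate 3 (0.0761) and without LN-521+LN-221 replicates 2 or 3 (0.134 and 0.124).

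Of 14 other receptor tyrosine kinases tested 2 were called. ROR1, a receptor for WNT5A, rose with a log2 fold change of 0.33 ± 0.06 (SE, adjusted p = 0.00252), a size close to that of FGFR3. Its CPM was 132, 119 and 124 on LN-521 alone and 157, 162 and 153 with LN-221 added, without overlap, and the call was kept without any 1 of the 6 wells. MET, the receptor for hepatocyte growth factor, fell with a log2 fold change of -0.31 ± 0.08 (SE, adjusted p = 0.0478), and its CPM of 33.0, 32.2 and 34.2 on LN-521 stood above 26.7, 29.2 and 24.3 on LN-521+LN-221. The call of MET was lost without LN-521 replicate 3 (0.229) and without LN-521+LN-221 replicates 1, 2 or 3 (0.171, 0.0660 and 0.275), and limma on log2(TPM + 1) gave -0.16.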
